A study of Homo sapiens with 15 samples.

Results

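The region described is a stretch of 32 kb of human chromosome 11 (hg19) that holds the start of HBE1, the embryonic beta-type globin gene, and the locus control region with its DNase I hypersensitive sites HS1 to HS5. Its peaks ran from 5288326 to 5319469. Its members were all peaks of the 15 deposited peak lists that overlapped this stretch, 88 peaks of 1070377 in all lists together. They merged into 9 regions, of which 5 were HS1 to HS5, 1 was the HBE1 promoter and 3 carried no name. Peaks are places where fragments from nuclease-digested nuclei of K562 cells, a human erythroleukemia line, piled up above the local background. The cells had been transduced with lentivirus in the presence of polybrene and selected with puromycin, so every group stably expressed dCas9, a catalytically dead Cas9 that a guide RNA (gRNA) directs to its target, or its fusion with KRAB. The 5 groups of 3 libraries were 1 with dCas9-KRAB alone (no gRNA), 2 with plain dCas9, given either gRNA Cr4 or gRNA Cr10, and 2 with dCas9-KRAB, given either Cr4 or Cr10. Below, the 6 libraries of the last pair of groups are called the targeted KRAB libraries, and the remaining 9 the comparison libraries. The labels do not agree fully on the no-gRNA group: its titles name no gRNA and the series' design text lists such a control, whereas its gRNA target field, like that of the other groups, names HS2. The titles and design text were followed, and every value given as without a gRNA rests on them. KRAB is a transferable repressor domain of zinc finger proteins, and both gRNAs were aimed at HS2. No group had dCas9 without KRAB and without a gRNA, so comparisons of dCas9 plus gRNA with the no-gRNA group change both at once. The labels name no separate cultures beyond transduction in triplicate, so the p-values reflect only how much these libraries vary, which may be technical.

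The locus control region lies upstream of HBE1 and acts over distance on all genes of the beta-globin cluster. HS2 is a classical transcriptional enhancer bound by erythroid factors such as NF-E2 and GATA1, HS3 opens chromatin and also has enhancer activity, HS1 and HS4 are erythroid sites with weaker activity of their own, and HS5 lies at the upstream end and binds CTCF. KRAB recruits the co-repressor TRIM28 and with it histone methyltransferases that deposit H3K9 trimethylation.

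The lists held 53147 to 94777 peaks and the total number of sequenced fragments is not known. In the 38888 regions where every one of the 15 lists had a peak, the median summit pileup of a library, the number of fragments stacked at the highest point of a peak, ran from 44 to 115 fragments. It served as the depth scale. As a check of the cell type, a peak lay within 1 kb of the starts of GATA1, the erythroid master regulator, and of the fetal globin genes HBG1 and HBG2 in 15 of 15 lists each. No pair of lists shared more than 0.707% of the shorter list's peaks with the same start and end.

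HS1 to HS5 were each present as a single peak in all 15 lists and gave 75 of the 88 peaks of the stretch. They remained present in 15 of 15 lists when each list was cut to its 53098 strongest peaks. At a cut of 50000, HS2 was lost in replicate 2 of dCas9-KRAB with Cr10, where it ranked 52061. The sites followed each other away from HBE1: the median summit lay 5805 bp from the HBE1 start for HS1, 10592 bp for HS2, 14595 bp for HS3, 18108 bp for HS4 and 21243 bp for HS5. Summit pileups at these sites ran from 25 to 175 fragments, whereas the other 13 peaks of the stretch had 15 to 52. All 9 regions together covered 3431 bp of the stretch.

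**Figure D1:**
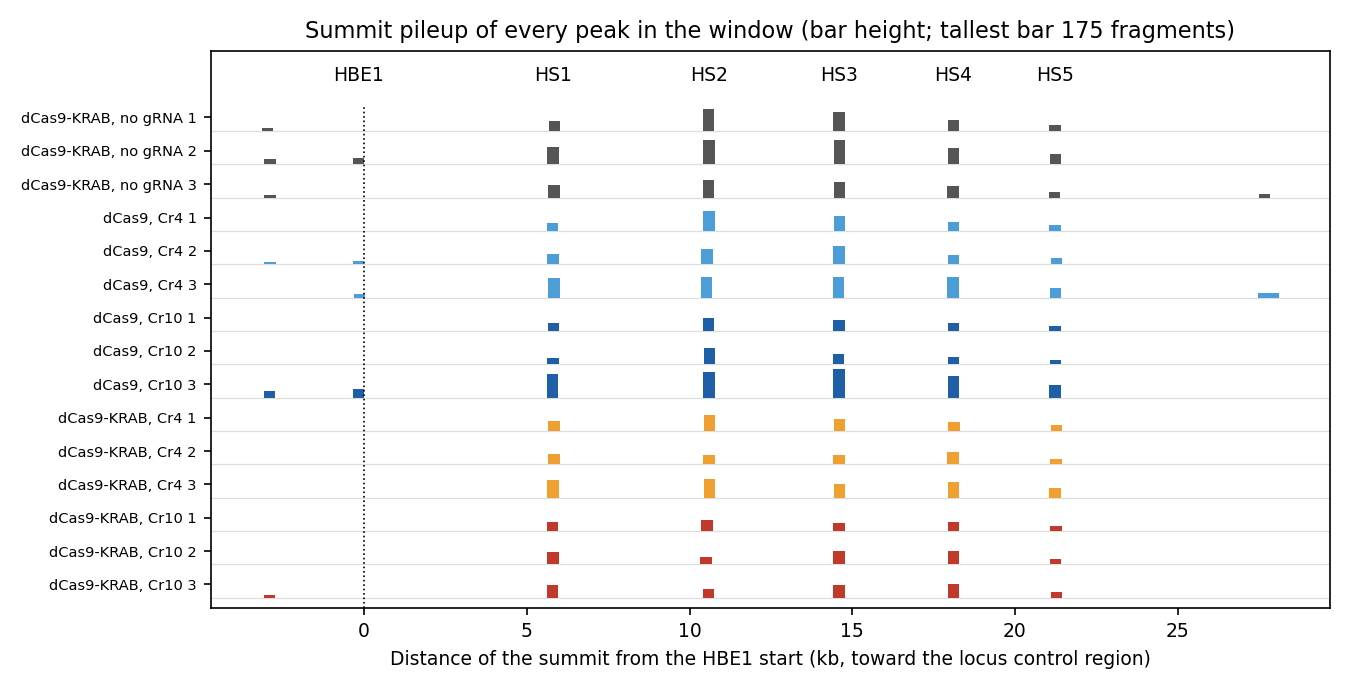
Summit pileup (bar height, in fragments, not scaled for depth) of every peak of the stretch in each of the 15 libraries, against the distance of the summit from the HBE1 start in kb; the tallest bar is 175 fragments. HS1 to HS5 appear in all 15 libraries, a peak at HBE1 appears in 4, and the wide bar near the right edge is a pair of adjacent peaks of 1 library.

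The promoter of HBE1 carried a weak peak in 4 of 15 lists and in none of the 6 targeted KRAB libraries. In dCas9-KRAB without a gRNA it was called in replicate 2 (5291119 to 5291383, summit 5291228, 35 fragments, authors' fold over local background 4.38). In dCas9 with Cr4 it was called in replicate 2 (summit 5291219, 21 fragments, fold 4.51) and replicate 3 (summit 5291251, 25 fragments, fold 3.72). In dCas9 with Cr10 it was called in replicate 3 (5291041 to 5291397, summit 5291219, 52 fragments, fold 6.22), the longest of the 15 lists. The 4 summits lay within 32 bp of each other, at −181 to −149 bp from the HBE1 start as recalled for hg19, on the side of the gene body. A share of 0% of targeted KRAB libraries against 44.4% of comparison libraries did not pass Fisher's exact test (two-sided, p = 0.103). Presence also moved with list length: the lists with the peak held at least 70764 peaks, although a list of 88822 peaks, replicate 3 of dCas9-KRAB with Cr4, was without it. The part of list length in the result was not tested beyond the lists of equal length, in which the peak remained in 1 of 15 libraries.

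In the 9 comparison libraries HS2 and HS3 were the highest summits of the locus control region, HS4 and HS1 were intermediate and HS5 was the lowest. HS2 had on average 1.11 times the pileup of HS3, a difference that did not pass (higher in 5 of 9 libraries, equal in 1; exact sign-flip permutation test within libraries, two-sided, p = 0.156). HS3 stood 1.44 times above HS4 and was higher in 8 libraries and equal in 1 (exact permutation p = 0.00781). HS4 and HS1 were not separated, with a ratio of 1.02 (exact permutation p = 0.605). HS1 stood 1.71 times above HS5 in 9 of 9 libraries (exact permutation p = 0.00391, the smallest that 9 libraries allow). In the 6 targeted KRAB libraries the top of this order was not resolved: HS4, HS1, HS3 and HS2 followed each other with ratios of 1.02, 1.07 and 1.02 (exact permutation p = 0.781, 0.375 and 0.844), and HS5 was again the lowest in 6 of 6. HS2 or HS3 held the highest summit, alone or tied, in all 9 comparison libraries. In the targeted KRAB libraries HS2 did so in 3 and HS4 in the other 3.

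HS2 (5301766 to 5302230 over all lists) had a lower summit pileup on average where dCas9-KRAB was brought to it. Without a gRNA its summit pileup was 135, 150 and 110 fragments in replicates 1, 2 and 3. With dCas9 it was 123, 95 and 130 fragments with Cr4 and 81, 99 and 160 with Cr10. With dCas9-KRAB it was 97, 57 and 113 fragments with Cr4, and 66, 44 and 53 with Cr10. The 3 values with Cr10 lay below those of all comparison libraries, and the values with Cr4 lay among and below them. The raw values depend on depth, so each was set on a log2 scale, log2(pileup + 1), less the median of its library over the 38888 common regions.

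On that scale the targeted KRAB libraries averaged −0.06 ± 0.38 (SD, n = 6) at HS2, near the median common region, and the comparison libraries 0.65 ± 0.29 (SD, n = 9). The difference of −0.71 (SE 0.12), or 0.611 times, passed the exact permutation test over libraries (two-sided, p = 0.000799, 5005 splits). All 6 values lay below the mean of the comparison libraries, but the ranges overlapped: replicate 1 of dCas9-KRAB with Cr4 stood at 0.44, above 3 of the 9, the lowest of which, replicate 2 of dCas9 with Cr10, stood at 0.36. Leaving out any 1 library kept the difference between −0.81 and −0.60 (exact permutation p from 0.0005 to 0.0050). The groups with each gRNA differed from the same 9 libraries on their own, by −0.48 for Cr4 (exact permutation p = 0.0364) and −0.94 for Cr10 (exact permutation p = 0.00455), alternatives chosen after the values were seen. Across all 38888 regions limma called 0 in this comparison, 0% of the regions tested, HS2 included (limma adjusted p = 0.187). At an unadjusted p under 0.05 it found 301 regions (0.774%), with HS2 and HS3 among them. That share is smaller than the threshold gives by chance. By limma p HS2 was nevertheless placed 1 and HS3 placed 2 among the 38888 regions. With the replicate number as a block, limma did call HS2 here (adjusted p = 8.81e-05) and for Cr10 under dCas9-KRAB versus no gRNA (3.75e-05). The share of all regions called with the block is not given here, so these calls cannot be read as particular to HS2. The replicate numbers were not taken to pair the libraries, for reasons given in the last section.

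**Figure D2:**
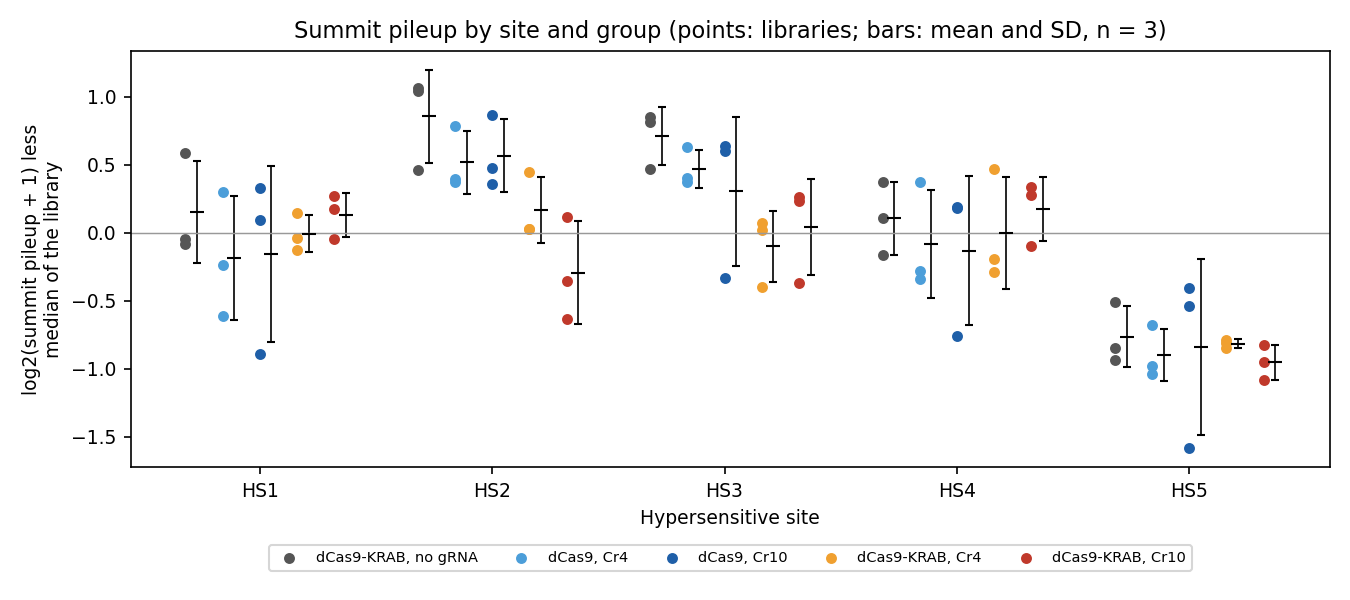
Summit pileup of HS1 to HS5 on the log2 scale, log2(pileup + 1) less the library median, where 0 is the median common region; points are libraries, black marks the mean and SD of 3 libraries. At HS2 the dCas9-KRAB groups average 0.17 with Cr4 and −0.29 with Cr10, against 0.85 without a gRNA, while the groups' values at HS1, HS4 and HS5 overlap.

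Against dCas9-KRAB without a gRNA, HS2 was 0.620 times as high with Cr4 (log2 difference −0.69, SE 0.19) and 0.452 times as high with Cr10 (−1.15, SE 0.19). In both comparisons the groups of 3 did not overlap (exact permutation p = 0.1 in both, the smallest that 3 against 3 allows). Lower groups without overlap were found in 2.38% of all regions for Cr4 and 2.01% for Cr10. Limma's adjusted p over all regions was 1.00 and 0.0999, and limma called 0 regions in each (0%; 0.723% and 0.841% at an unadjusted p under 0.05). Against dCas9 with the same gRNA, HS2 was 0.551 times as high with Cr10, again without overlap (−0.86, SE 0.19; exact permutation p = 0.1), where 2.13% of regions were lower without overlap. With Cr4 it was 0.783 times as high, and the groups overlapped (−0.35, SE 0.19; exact permutation p = 0.3). With dCas9 lacking KRAB, the differences from no gRNA were −0.34 for Cr4 and −0.29 for Cr10 (SE 0.19 each; limma adjusted p 1.00 in both). The gRNA comparison under dCas9-KRAB gave −0.46 for Cr10 less Cr4 (SE 0.19; exact permutation p = 0.3). The difference between dCas9-KRAB and dCas9 with Cr10, less that with Cr4, was −0.51 (exact permutation p = 0.335). By rank of the authors' fold, in percentiles of lists cut to equal length, HS2 stood at 66.2 on average without a gRNA, at 59.5 with dCas9-KRAB and Cr4 and at 23.8 with dCas9-KRAB and Cr10. On this measure the Cr4 group overlapped the no-gRNA group (−6.71 points, exact permutation p = 0.5) and the Cr10 group did not (−42.3 points, exact permutation p = 0.1), where 2.73% of ranked regions were lower without overlap. With dCas9, HS2 stood at 57.3 with Cr4 and at 67.8 with Cr10. Against these, dCas9-KRAB differed by 2.18 points with Cr4 (exact permutation p = 0.9) and by −43.9 points with Cr10 (exact permutation p = 0.2). The groups overlapped in both. On log2 fold these differences were −0.02 with Cr4 and −0.67 with Cr10.

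**Figure D3:**
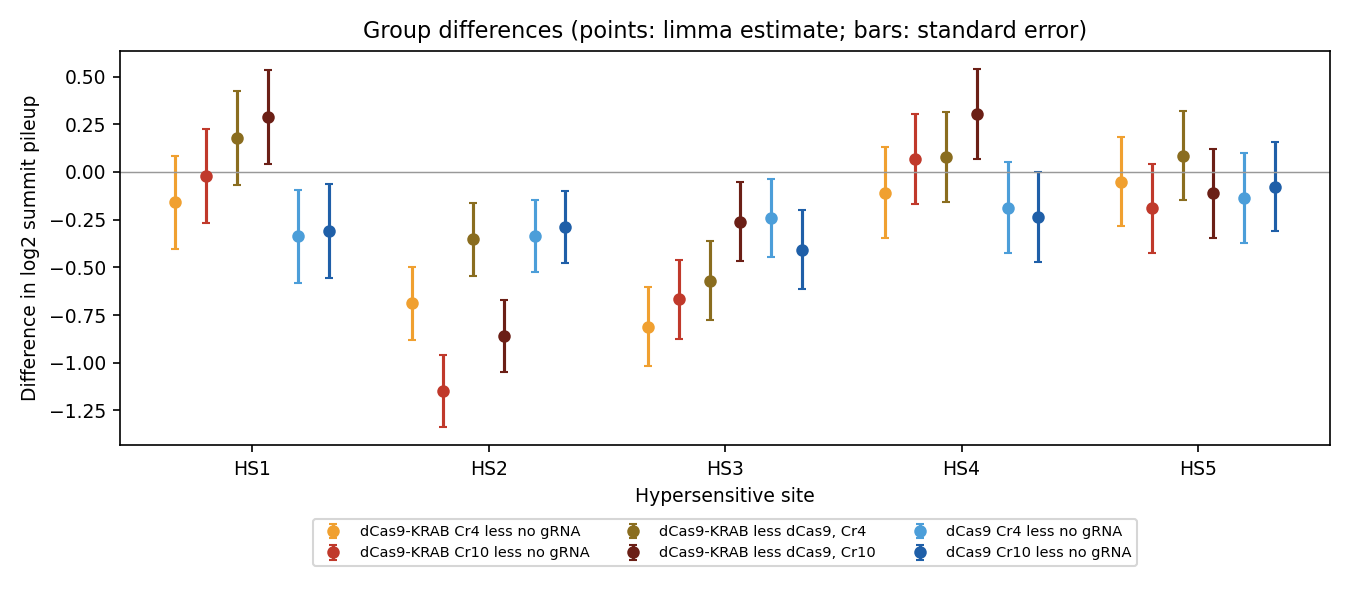
Differences in log2 summit pileup between groups at HS1 to HS5, as limma estimates with their standard errors. The differences at HS2 and HS3 are below 0 in all 6 comparisons drawn, down to −1.15 at HS2 for Cr10 under dCas9-KRAB, and those at HS1, HS4 and HS5 lie on both sides of 0.

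HS3 (5305792 to 5306310), the neighbouring enhancer about 4007 bp further upstream, was also lower in the targeted KRAB libraries, although no gRNA was aimed at it. Its summit pileup was 116, 151 and 94 fragments without a gRNA, 94, 112 and 130 with dCas9 and Cr4, and 69, 61 and 175 with dCas9 and Cr10. With dCas9-KRAB it was 72, 59 and 84 fragments where Cr4 was given, and 47, 83 and 80 where Cr10 was. On the scaled log2 measure the targeted KRAB libraries averaged −0.03 ± 0.29 (SD) and the comparison libraries 0.49 ± 0.35. The difference of −0.52 (SE 0.13), or 0.696 times, passed the exact permutation test (two-sided, p = 0.0118) and not the test over all regions (limma adjusted p = 1.00). Replicate 2 of dCas9 with Cr10, a comparison library, stood at −0.33, among the lowest of all 15, and without it the difference was −0.63 (exact permutation p = 0.000333). With Cr10 alone against the 9 libraries HS3 missed the threshold (−0.45, exact permutation p = 0.0591), and with Cr4 alone it passed (−0.59, exact permutation p = 0.0227).

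At HS3 the larger difference from no gRNA belonged to Cr4, and at HS2 to Cr10, but the direct comparison of the gRNAs passed at neither site. Under dCas9-KRAB, Cr10 less Cr4 was 0.14 at HS3 (SE 0.21; exact permutation p = 0.5), and the groups overlapped. HS3 with dCas9-KRAB was 0.570 times the no-gRNA level with Cr4 (−0.81, SE 0.21) and 0.629 times with Cr10 (−0.67, SE 0.21). Both were without overlap (exact permutation p = 0.1 in both), where 2.38% and 2.01% of all regions were lower without overlap. Against dCas9 with the same gRNA it was 0.674 times with Cr4, without overlap, where 1.76% of all regions were lower without overlap, and it overlapped with Cr10 (−0.26, SE 0.21). The ratio of HS2 to HS3 within a library, which needs no depth scale, averaged 1.11 without a gRNA, 1.04 and 1.20 with dCas9 and Cr4 or Cr10, 1.20 for Cr4 under dCas9-KRAB, and 0.793 for Cr10 under dCas9-KRAB. In the last group replicates 2 and 3 stood at 0.536 and 0.667 and replicate 1 at 1.40, so it overlapped every other group. The difference from dCas9-KRAB with Cr4 was −0.60 in log2 (exact permutation p = 0.4) and the pooled difference −0.19 (exact permutation p = 0.427).

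**Figure D4:**
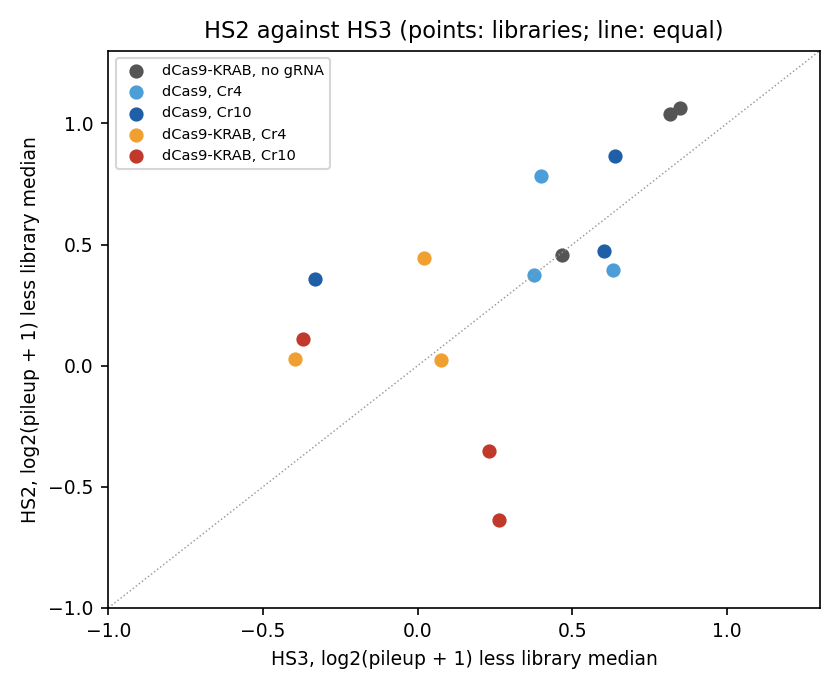
Scaled log2 summit pileup of HS2 against that of HS3 in each of the 15 libraries, with the line of equal values. The 6 targeted KRAB libraries lie at or below 0.26 at HS3 and at or below 0.44 at HS2, and replicates 2 and 3 of dCas9-KRAB with Cr10 fall farthest below the line.

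HS1, HS4 and HS5 showed no difference in summit pileup that passed. Between targeted KRAB and comparison libraries, HS1 (5296783 to 5297378) differed by 0.12 (SE 0.16; exact permutation p = 0.549), HS4 (5309327 to 5309737) by 0.12 (SE 0.15; exact permutation p = 0.532) and HS5 (5312466 to 5312801) by −0.05 (SE 0.15; exact permutation p = 0.770). Replicate 2 of dCas9 with Cr10, low at HS3, was also the lowest of the 15 libraries at these sites, with −0.89 at HS1, −0.76 at HS4 and −1.58 at HS5. Relative to the mean of the other 4 sites in the same library, the alternative without a genome-wide scale, HS2 and HS3 stayed lower, by −0.63 and −0.40 (exact permutation p = 0.0130 and 0.00819). On that scale HS1, HS4 and HS5 were higher by 0.42, 0.41 and 0.20 (exact permutation p = 0.00519, 0.00480 and 0.0358). The differences of the 5 sites offset each other by construction. This scale therefore cannot tell a fall at HS2 and HS3 from a rise at the rest. The share of the summed pileup of all 5 sites that lay at HS2 was 29.2% ± 3.01 (SD, n = 3) without a gRNA, 27.9% ± 6.29 and 29.5% ± 6.69 with dCas9 and Cr4 or Cr10, 24.5% ± 4.76 for Cr4 under dCas9-KRAB and 18.2% ± 6.26 for Cr10 under dCas9-KRAB.

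The authors' fold divides the summit by the local background of the same library, so it moves with both. It gave another picture of HS1 and HS4, whose summit pileup showed no difference that passed. The part of the background in this, and of neighbouring sites in the background, was not tested. On log2 fold HS1 was higher by 0.41 and HS4 by 0.24 in the targeted KRAB libraries (exact permutation p = 0.0222 and 0.0314), while HS2 was lower by a difference of −0.37 and HS3 of −0.26 (exact permutation p = 0.0216 and 0.0336). The local background, scaled by the library median like the pileup, was lower around HS1 by a difference of −0.28 (exact permutation p = 0.0266) and around HS2 by −0.34 (exact permutation p = 0.0214). It differed by −0.26 at HS3, −0.12 at HS4 and 0.00 at HS5 (exact permutation p = 0.0621, 0.450 and 0.970). Ranks by fold within a list gave the same order of signs: HS1 and HS4 stood 25.1 and 15.9 points higher, and HS2 and HS3 differed by −22.1 and −16.3 points (exact permutation p = 0.0110, 0.00999, 0.0432 and 0.0120). The rank difference of HS2 was the least stable of these: it passed in 7 of the 15 sets that leave out 1 library and shrank to −14.1 points without replicate 2 of Cr10 under dCas9-KRAB (exact permutation p = 0.129). When peaks were ranked by p-value, HS1 and HS4 no longer passed (12.2 and 7.81 points, exact permutation p = 0.150 and 0.208). On the ranks by fold, limma called 0 of 62858 ranked regions (0%). At an unadjusted p under 0.05 it found 1083 of them (1.72%), with HS1, HS2, HS3 and HS4 among them.

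HS2 was the widest peak of the 5 in 11 of 15 libraries, with a median of 423 bp over the comparison libraries and 387 bp over the targeted KRAB libraries. As log2 width less the library median, HS2 differed by −0.09 (SE 0.10; exact permutation p = 0.295), HS3 by −0.13, HS4 by 0.14 and HS5 by −0.06 (exact permutation p = 0.128, 0.101 and 0.567). In base pairs not scaled for depth, HS2 was narrower in the targeted KRAB libraries, with a difference of −0.13 in log2 (exact permutation p = 0.00539). HS1 was wider in the targeted KRAB libraries by 0.34 in log2 (SE 0.10), or 1.26 times (exact permutation p = 0.00120), with limma's adjusted p over all regions at 1.00. Its width was 263, 344 and 298 bp without a gRNA, 233, 265 and 319 bp with dCas9 and Cr4, 244, 265 and 345 bp with dCas9 and Cr10, 320, 285 and 579 bp for Cr4 under dCas9-KRAB, and 353, 309 and 312 bp for Cr10 under dCas9-KRAB. The 579 bp peak, of replicate 3 with Cr4, began at 5296783, whereas the peak with the next lowest start began at 5296997. Without that library the difference was 0.24 (exact permutation p = 0.0045). Limma called 0 of 38888 regions for width (0%), with 1.98% at an unadjusted p under 0.05, and 1 of the 5 sites, HS1, was among the latter.

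The summit of HS2 took up 2 positions. In 11 libraries it lay between 5301990 and 5302015 and in 4 between 5301912 and 5301941, with a gap of 49 bp and no library between. The 3 libraries without a gRNA lay at 5301992, 5301995 and 5301990, and those of dCas9 with Cr10 at 5301991, 5302013 and 5301993. With dCas9-KRAB and Cr4 the summits lay at 5302009, 5301993 and 5302015. The 4 lower positions belonged to replicates 2 and 3 of dCas9 with Cr4 (5301941 and 5301925) and to replicates 1 and 2 of dCas9-KRAB with Cr10 (5301940 and 5301912), while the third library of each group lay at 5301996 and 5301990.

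Between targeted KRAB and comparison libraries the mean position differed by −5.28 bp (exact permutation p = 0.823). With Cr10 the summit lay −51.7 bp from that with dCas9, without overlap, where 2.68% of regions were lower without overlap, and with Cr4 the difference was 51.7 bp in the other direction (exact permutation p = 0.1 and 0.2). The gap between these differences, −103 bp, passed an exact permutation of the labels within each gRNA (two-sided, p = 0.02). It was 1 of 20 such values computed, over 5 sites and 4 measures, and did not pass limma's test over all regions (adjusted p = 1.00). The range of the HS2 summit over the 15 libraries was 103 bp, wider than in 84.9% of the 38888 regions, whose median range was 54 bp. How many regions had summits at 2 separate positions was not counted. The ranges at the other sites were 58 bp at HS1, 36 bp at HS3, 32 bp at HS4 and 54 bp at HS5. At HS1 the summits with dCas9-KRAB and Cr10 lay at 5297187, 5297200 and 5297194, below those without a gRNA (5297245, 5297205 and 5297231) and below those of Cr4 under dCas9-KRAB (5297234, 5297237 and 5297204). The HS1 differences were −33.3 and −31.3 bp, both without overlap (exact permutation p = 0.1 in both; limma adjusted p = 0.977 and 0.993), where 4.22% and 4.29% of regions were lower without overlap. The HS2 summit with Cr10 under dCas9-KRAB lay −58.3 bp from that with Cr4, also without overlap. Between targeted KRAB and comparison libraries limma called 2 regions for summit position, 0.00514%, and none of the 5 sites.

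**Figure D5:**
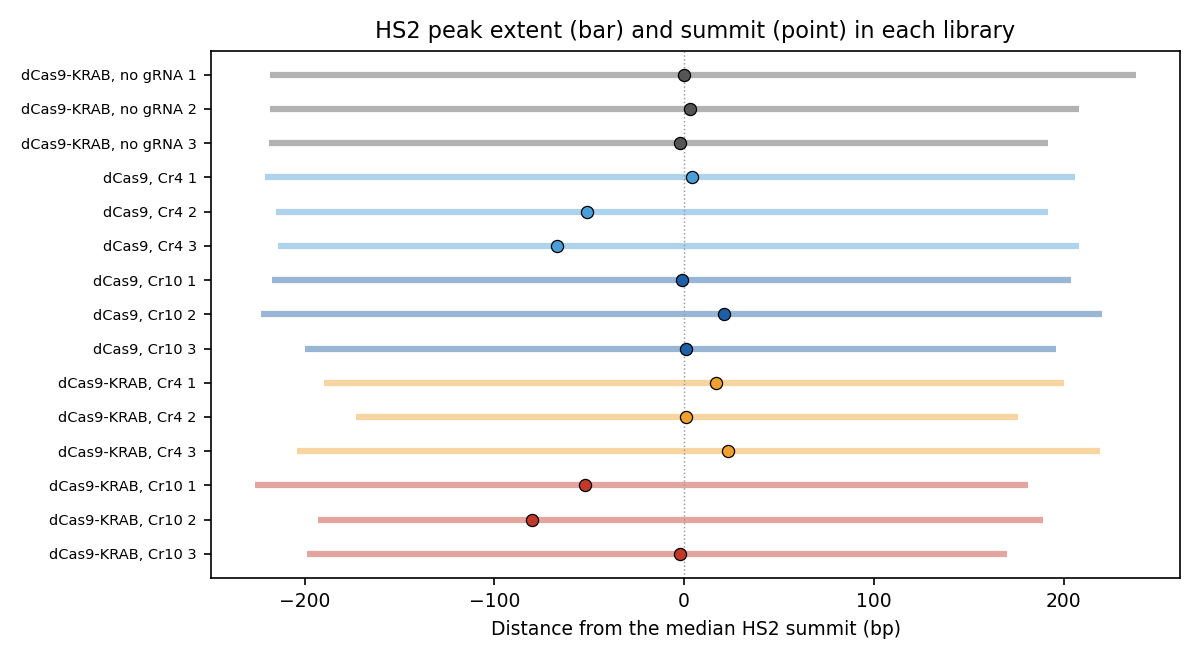
Extent of the HS2 peak (bars) and its summit (points) in each library, in bp from the median summit of the 15 libraries. The summits of 11 libraries sit near 0 and those of 4 libraries lie to the left, past a gap of 49 bp, while the extents of the peaks overlap throughout.

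The 3 unnamed regions were weak. A peak downstream of HBE1, at 5288326 to 5288665 with summits at −2961 to −2888 bp from the gene's start, was called in 6 lists: in all 3 libraries without a gRNA (15, 34 and 17 fragments), in replicate 2 of dCas9 with Cr4 (16 fragments), in replicate 3 of dCas9 with Cr10 (42 fragments) and in replicate 3 of dCas9-KRAB with Cr10 (19 fragments). At the far end, beyond HS5, a region at 5318961 to 5319164 was called in replicate 3 without a gRNA (20 fragments) and in replicate 3 of dCas9 with Cr4 (26 fragments), and the latter list held a further peak at 5319267 to 5319469. Counting HBE1 with them, 12 of these 13 weak peaks came from 6 of the 9 comparison libraries and 1 came from the 6 targeted KRAB libraries. The means were 1.33 and 0.167 weak peaks per library (exact permutation p = 0.0438, a count chosen after its values were seen). How weak peaks of all regions divide between these libraries was not counted, so the count cannot be read as particular to this stretch. Leaving out any 1 of 10 of the 15 libraries ended this call, with p up to 0.0723, and weak peaks depend on list length; its part in the count was not tested.

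Across the 15 libraries the 5 regions whose scaled pileup was most like that of HS2 lay outside chromosome 11. Likeness was described by Pearson's r over 15 libraries that share their depth scale. The 5 were picked as the highest of 38887 values, and how high r runs by chance was not tested. The 5 regions with the highest r lay on chromosome 3 (11845509 to 11845896, r = 0.844), chromosome 17 (77696084 to 77696498, r = 0.820), chromosome 2 (31556444 to 31556781, r = 0.813), chromosome 8 (96902787 to 96903145, r = 0.812) and chromosome 15 (83875681 to 83877216, r = 0.809). Of its neighbours, HS3 came nearest (r = 0.560, place 396 of 38887), followed by HS5 (r = 0.295, place 5152), HS1 (r = −0.0880, place 25942) and HS4 (r = −0.142, place 28631).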

How the data were processed

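Each of the 15 libraries came as a list of peaks in narrowPeak layout on hg19. Per the submitters' processing notes, reads went through CASAVA 1.3 and were aligned using BWA, and bedtools is listed too; the peak caller is not given in the sources used here, though peak names carry the prefix macs_peak. The deposited fold column is a ratio of summit over local background. The deposited p-value and q-value columns are −log10 values, and the deposited score equals that −log10 q-value times 10, cut to a whole number, in at least 99.995% of each list's peaks. No scaling between libraries is recorded.

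Coordinates are 1-based, and a summit is column 2 plus column 10 plus 1. The summit pileup k and local background λ were solved from fold = (k + 1)/(λ + 1) and the Poisson p-value; a whole k met both within 0.01 in −log10 p for 100% of peaks. Peaks of the autosomes and X that shared at least 1 bp were merged into 120992 regions, and a library's strongest peak stood for it. Sites were assigned within 750 bp of hg19 positions recalled from memory, with no annotation of that build at hand. Pileup, width and summit were fitted by limma 3.58.1 (R 4.3.3) on the 38888 regions with a peak in all lists, and rank percentiles on the 62858 regions with a peak in at least 3 equal-length lists, with 5 groups, 8 comparisons, a mean-variance trend (not for summits) and Benjamini-Hochberg adjustment over all regions at 0.05. Single sites were tested by exact permutation over libraries, 280 tests in all, with no adjustment over the sites. The limma and permutation scripts were tested on simulated data. Named are the HBE1 promoter, HS1 to HS5, every other region of the stretch and the 5 regions most like HS2. The members and lists were chosen with earlier results of these data known. Alternatives covered scaling, ranking, list length, a block for the replicate number, and dropping 1 library at a time. Python 3.11.15 with numpy 2.4.6, pandas 2.3.3, scipy 1.17.1 and matplotlib 3.10.9 was used.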

Additional observations from a re-analysis of the deposited data

Results flagged for a closer look

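At HS3, replicate 2 of dCas9 with Cr10 stood at −0.33 in scaled log2 pileup, apart from the other 8 of the 9 libraries that lacked either KRAB or a gRNA; the gap took up 0.599 of their whole range. It was the only such value in 40 sets of 6 or 9 libraries checked, where chance gives about 1 in 20.

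At HS2, the difference in summit position between dCas9-KRAB and dCas9 with Cr10, less that with Cr4, was −103 bp (exact permutation p = 0.02). It was 1 of 20 differences of this kind computed, no other had a p of 0.05 or less, and limma's adjusted p was 1.00. Leaving out any 1 of the 12 libraries gave −125 to −85.7 bp (exact permutation p from 0.005 to 0.04), and the midpoint of the peak in place of the summit gave −23.3 bp (exact permutation p = 0.04).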

How the results depend on the processing

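Depth limits all values, since fragment totals are unknown and 3 libraries against 3 cannot give an exact permutation p under 0.1. The pooled pileup differences at HS2 and HS3 kept their direction and passed without library scaling (−0.79 and −0.60), scaled on the other sites, on log2 fold and without any 1 library. The scale on the other sites cannot tell a fall at HS2 and HS3 from a rise at the rest. The replicate numbers were not taken to pair the libraries, since 19 and not all of 30 same-numbered pairs correlated above 0.1 (from −0.282 to 0.653) and 0 of 15 libraries correlated best with its own number in every group. The mean correlation was nevertheless higher for pairs with the same number (0.195) than with different numbers (−0.0945), a hint from the data of some sharing. Values were taken less their group mean before correlating, which ties the second mean to the first, so the second adds no evidence of its own. With the replicate number as a block, limma called HS2 over all regions in 3 comparisons, against 0 without it. These were the pooled one (adjusted p = 8.81e-05), Cr10 under dCas9-KRAB versus no gRNA (3.75e-05), and Cr10 under dCas9-KRAB versus under dCas9 (0.0093). The share of all regions called with the block is not given here, so these calls cannot be read as particular to HS2. Within numbers, exact permutation of the pooled HS2 pileup gave p = 0.001, the smallest possible, and the block ended no call of the exact tests. Without 1 library the limma calls of pileup in the stretch, all HS2, ran from 0 to 2: 2 without replicate 2 of no gRNA or replicate 1 of dCas9-KRAB with Cr10, and 1 without replicate 1 of dCas9 with Cr4. For these fits too, the share of all regions called is not given here. HS2's adjusted p in the pooled comparison ran from 8.81e-05 to 1.00 over the alternatives. The HS2 rank difference ran from −26.9 to −14.1 points without 1 library and passed in 7 of 15. The HS2 summit difference ran from −13.0 to 7.62 bp; it turned to 2.02 and 7.62 bp without the first or the second replicate of Cr10 under dCas9-KRAB and to 0.556 bp on the peak midpoint. That of HS3 ran from −0.80 to 5.08 bp and turned to −0.80 bp without replicate 1 of dCas9-KRAB with Cr4. HS2 width without library scaling passed at −0.13. HS5 pileup turned to 0.20 when scaled on the other sites and to 0.0051 without replicate 1 of dCas9 with Cr10 (range −0.14 to 0.0051). The cause of these changes was not tested. For rank, width and summit, limma called 0 sites of the stretch under all alternatives run.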
